A study of Arabidopsis thaliana with 39 samples.

Results

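The 38 genes described here code for the plastid enzymes of the Calvin cycle and for the enzymes and carriers of photorespiration in *Arabidopsis thaliana*. They were chosen by name from the biochemistry of both pathways, 16 for the Calvin cycle and 22 for photorespiration, from the 33110 genes of the count table. All 38 had enough counts to be tested in every comparison. The 39 RNA-seq libraries were made from rosettes of soil-grown plants under long days, with the stalk and the reproductive tissue removed, at 30, 37 and 44 days after sowing (DAS). *35S::SLIM1* #17 and *35S::SLIM1* #25 were independent T2 lines that expressed *SLIM1* from the 35S promoter, which drives expression in nearly all cells, their seedlings had been selected on hygromycin, and homozygous plants were used. The *slim1-cr* plants were a single CRISPR/Cas9 line that had lost the part of *SLIM1* coding for the DNA binding domains, while the 3′ part of the gene remained. *EV* plants carried the empty vector and were sampled at 30 DAS alone. Col-0 was the wild type at each age. Each of the 13 combinations of genotype and age was represented by 3 rosettes.

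The Calvin cycle fixes CO2 on ribulose-1,5-bisphosphate, reduces the product to triose phosphate with ATP and NADPH, and regenerates the acceptor. When Rubisco takes O2 in place of CO2, the phosphoglycolate formed is salvaged by photorespiration, which runs through the chloroplast, the peroxisome and the mitochondrion and releases CO2 and ammonium on the way. Transcripts of both pathways are among the most abundant in green leaves, are raised by light, and are known to decline as leaves age. SLIM1 (EIL3) is a transcription factor of the ethylene insensitive 3-like family that is best known for its role in the response to sulfur deficiency.

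The 500 bases upstream of each annotated gene start were searched on both strands for 6 short motifs, and no match to one motif overlapped a match to another in the members. A G-box (CACGTG), the core of many light-responsive promoters, was found in 6 of the 38 promoters, or 15.8%, against 9.35% of 27438 promoters of protein-coding genes. The I-box core (GATAAG) was found in 9 members, or 23.7%, against 22.5% of all promoters. The evening element (AAATATCT) was found in no member, against 8.86% of all promoters, and the CCA1 site (AAAAATCT) in 3 members, or 7.89%, against 12.5%. The SURE core (GAGAC), known from sulfur-responsive promoters, was found in 17 members, or 44.7%, against 45.3% of all promoters. The motif AATGNANCT, of the kind bound by EIL proteins, was found in 2 members, *TKL1* and *GLDT*, or 5.26%, against 9.13%. These matches were letters in a window and were not measurements of binding.

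The 250 bases before the gene start are shown for 5 members that will recur in the results, with each G-box or I-box core on either strand in capitals (the I-box core reads CTTATC on the other strand), from the RefSeq assembly TAIR10.1. *PRK* and *HCEF1* represent the regeneration of the acceptor, *GGT1* the peroxisome, and *GLDP1* and *GLDP2* are paralogs that differed in how far they fell.
PRK (chr1:11531949-11532198, strand plus): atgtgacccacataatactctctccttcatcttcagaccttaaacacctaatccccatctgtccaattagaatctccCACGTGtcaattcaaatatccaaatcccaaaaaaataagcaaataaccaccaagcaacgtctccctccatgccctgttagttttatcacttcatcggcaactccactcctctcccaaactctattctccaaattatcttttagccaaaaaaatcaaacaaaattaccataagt
HCEF1 (chr3:20016587-20016836, strand plus): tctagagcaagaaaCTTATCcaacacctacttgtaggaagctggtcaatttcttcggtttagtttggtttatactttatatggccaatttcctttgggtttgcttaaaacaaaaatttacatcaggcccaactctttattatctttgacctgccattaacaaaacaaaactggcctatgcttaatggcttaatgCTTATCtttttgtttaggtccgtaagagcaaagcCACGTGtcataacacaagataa
GGT1 (chr1:8272022-8272271, strand minus): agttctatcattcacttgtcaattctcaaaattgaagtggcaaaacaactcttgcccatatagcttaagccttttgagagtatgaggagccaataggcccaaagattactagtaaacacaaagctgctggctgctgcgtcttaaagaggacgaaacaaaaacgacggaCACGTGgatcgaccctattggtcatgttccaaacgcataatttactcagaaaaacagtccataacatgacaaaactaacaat
GLDP1 (chr4:15931423-15931672, strand minus): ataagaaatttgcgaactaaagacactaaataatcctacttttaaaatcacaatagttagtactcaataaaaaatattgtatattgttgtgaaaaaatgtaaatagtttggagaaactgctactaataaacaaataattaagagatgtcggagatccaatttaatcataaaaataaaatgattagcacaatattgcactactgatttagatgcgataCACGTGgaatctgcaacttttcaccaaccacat
GLDP2 (chr2:11114292-11114541, strand minus): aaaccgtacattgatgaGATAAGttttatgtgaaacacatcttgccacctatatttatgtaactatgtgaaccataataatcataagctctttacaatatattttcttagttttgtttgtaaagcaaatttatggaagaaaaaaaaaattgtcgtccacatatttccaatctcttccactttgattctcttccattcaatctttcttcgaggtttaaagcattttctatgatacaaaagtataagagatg
Of these 5 promoters, 4 held 1 G-box each and the promoter of *GLDP2* held an I-box core instead, while *HCEF1* held both kinds of motif. Only 6 of the 38 members had a G-box, so these 5 promoters do not represent the whole list.

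The libraries held 38.4 to 46.2 M counts each. *SLIM1* itself averaged 353 and 293 CPM (counts scaled to the library total after TMM adjustment) in *35S::SLIM1* #17 and #25 at 44 DAS, 0.892 CPM in *slim1-cr* and 19.4 CPM in Col-0, so the targeted gene followed the labels in each genotype. The 7 rosette leaf markers summed to 8597 CPM or more in every library, whereas 5 root markers summed to at most 0.844 CPM, 7 seed storage markers to at most 6.30 CPM and 7 flower organ markers to between 2.79 and 59.8 CPM. Rosettes of one group differed well beyond counting error, since chi-square divided by its degrees of freedom was 8.89 to 171 in the 39 pairs within groups. Of the 38 members, 11 overlap another annotated gene, 10 of them one on the opposite strand, and whether the counting used strand is not given in the sources used here. *PGLP1* is uncertain in addition, because its coding sequence is identical to that of AT5G36790 on the same chromosome and reads could be split between them.

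Levels can be compared between genes only per length, so CPM were divided by the merged exon length in kilobases. In Col-0 at 30 DAS the order was led by *FBA2*, a plastid fructose-bisphosphate aldolase, at 2328 ± 92.3 CPM per kb (SD, n = 3), and it was followed by *GAPA-2*, *GAPA* and *SHM1* at 1322 ± 101, 1241 ± 74.9 and 1232 ± 104 CPM per kb. The last places were taken by *GGT2*, *GLDH2* and *SHM2*, the minor paralogs of their families, at 25.1 ± 2.22, 24.7 ± 3.73 and 20.6 ± 0.468 CPM per kb. *FBA2* stood clear of the next gene, but in 31 of the 37 neighbouring pairs of this order the ranges of mean ± 1 SD overlapped. At 44 DAS the first place in both overexpression lines was held by *CP12-1*, which codes for a small protein that binds glyceraldehyde-3-phosphate dehydrogenase and phosphoribulokinase, at 813 ± 93 CPM per kb in *35S::SLIM1* #17 and 720.3 ± 69.5 in *35S::SLIM1* #25, against 896 ± 68.9 in Col-0. *FBA2* was at 603 ± 71.5 and 487 ± 58.7 CPM per kb in the lines, against 1230.5 ± 180.5 in Col-0, where it still came first without standing clear of *SHM1*.

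At each age the transcripts of carbon fixation and photorespiration in plants with raised or disrupted *SLIM1* were compared with those in Col-0. The authors reported that the overexpression plants bolted earlier than the other genotypes, and they proposed that development was faster in these plants. Rosettes of the same age could therefore differ in developmental stage. No comparison was matched by stage, and the part of stage in the members' values was not tested. At 44 DAS, 33 of the 38 members were lower in *35S::SLIM1* #17 than in Col-0 and none was higher (edgeR quasi-likelihood test, Benjamini-Hochberg adjusted p under 0.05), where 20.6% of all genes tested were lower and 19.8% higher. In *35S::SLIM1* #25, 33 members were lower and none was higher, against 23.2% of all genes lower and 22.8% higher. The median log2FC of the members was -0.88 in #17 and -0.92 in #25, against -0.01 and 0.01 over all genes tested. In each line the libraries of all 33 called members lay below every Col-0 library. The same count was not made over all genes, so it describes the calls and adds nothing to them. These lines were compared with the same 3 Col-0 rosettes, so their values stand side by side and are not independent. The 5 members that passed the test in neither line were *TKL1*, *CP12-1*, *GOX2*, *SHM2* and *DIT1*. In *slim1-cr*, 7 members were higher than in Col-0 at 44 DAS and none was lower, against 6.21% of all genes higher and 3.97% lower. A rosette is a mixture of cells, and fewer green cells cannot be told apart from less of a transcript per cell.

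**Figure D1:**
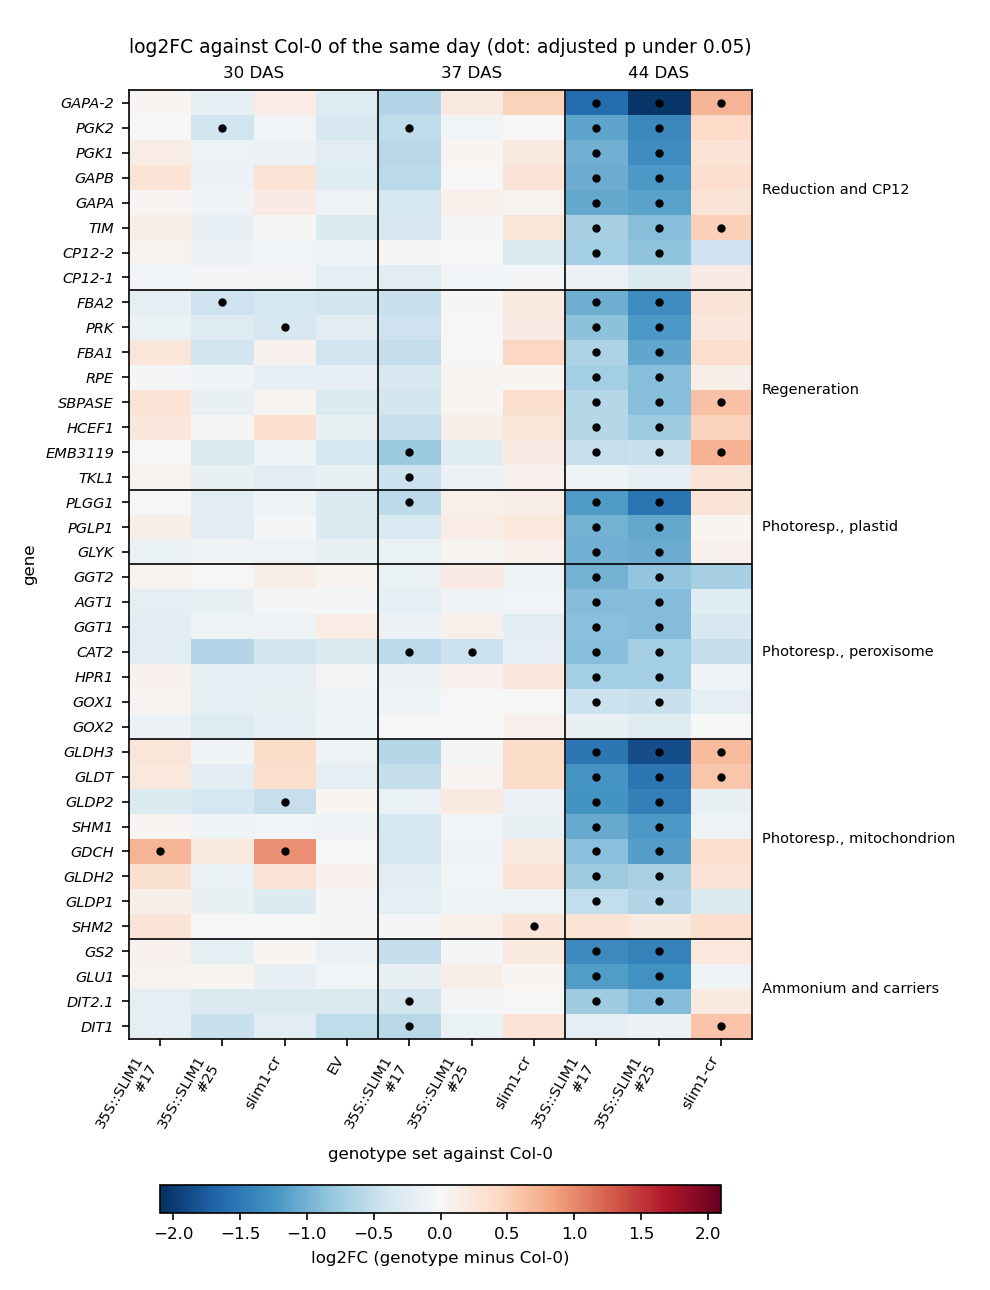
Heat map of the log2FC of each of the 38 genes (rows, grouped by step) in each genotype against Col-0 of the same age (columns, by age in DAS), blue for lower and red for higher, with a dot where the adjusted p was under 0.05. Both *35S::SLIM1* columns at 44 DAS are blue apart from *SHM2*, with 33 dots each, whereas the *slim1-cr* column at 44 DAS carries 7 dots, all on red cells.

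In the reduction phase, 3-phosphoglycerate is phosphorylated and then reduced to triose phosphate, and 7 of its 8 members were lower in both lines at 44 DAS, with a median log2FC of -1.02 in #17 and -1.17 in #25. The largest fall of all 38 genes was that of *GAPA-2* (AT1G12900), an A subunit of the plastid NADP-dependent glyceraldehyde-3-phosphate dehydrogenase. Its level was 253, 194 and 264 CPM in *35S::SLIM1* #17 and 177, 157 and 182 CPM in #25, against 839.6, 680.4 and 664 CPM in Col-0. Both lines thus lay far below Col-0, by 3.05-fold (log2FC -1.61 ± 0.17, SE, n = 3; adjusted p = 8.0e-05) and 4.13-fold (log2FC -2.05 ± 0.17, adjusted p = 1.7e-05). *PGK2* (AT1G56190), a phosphoglycerate kinase, came next with 59.7, 51.7 and 54.1 CPM in #17 and 53.4, 36.9 and 47.1 CPM in #25, against 124, 123 and 112 CPM in Col-0, and log2FC of -1.11 ± 0.13 and -1.36 ± 0.13 (adjusted p = 1.2e-04 and 3.0e-05). *CP12-1* (AT2G47400) moved least in this group. It had 830.3, 661 and 736 CPM in #17 and 671, 588 and 713 CPM in #25, against 793, 889.9 and 772 CPM in Col-0. The libraries of #17 and Col-0 overlapped, and neither log2FC, -0.13 ± 0.13 and -0.28 ± 0.13, passed the test (adjusted p = 0.44 and 0.092). Its paralog *CP12-2* (AT3G62410) was lower at log2FC -0.71 and -0.84, although this call in #17 was lost without replicate 2 or 3 of #17 or replicate 2 of Col-0. The other members, *GAPA* (AT3G26650), *GAPB* (AT1G42970), *PGK1* (AT3G12780) and the plastid triose-phosphate isomerase *TIM* (AT2G21170), were lower at log2FC between -0.69 and -1.08 in #17 and between -0.90 and -1.31 in #25.

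The regeneration phase rebuilds ribulose-1,5-bisphosphate from triose phosphates, and 7 of its 8 members were lower in both lines, with medians of -0.63 and -0.89. *FBA2* (AT4G38970) fell furthest, with 1110.3, 923 and 1163 CPM in *35S::SLIM1* #17 and 889, 746 and 948 CPM in #25, against 2399, 2318 and 1810.0 CPM in Col-0. Its log2FC was -1.02 ± 0.16 in #17 and -1.30 ± 0.16 in #25 (adjusted p = 6.5e-04 and 1.2e-04). *PRK* (AT1G32060), the phosphoribulokinase that makes the CO2 acceptor and whose promoter is shown above, had 461, 342 and 381 CPM in #17 and 278, 271 and 370.3 CPM in #25, against 741, 794 and 628 CPM in Col-0. That was a log2FC of -0.86 ± 0.16 and -1.20 ± 0.16 (adjusted p = 0.0021 and 2.5e-04). *TKL1* (AT3G60750), the plastid transketolase, was the exception. It had 869, 669 and 782 CPM in #17 and 711, 687 and 744 CPM in #25, against 871, 798 and 813 CPM in Col-0. The libraries of *TKL1* overlapped those of Col-0 in #17 but not in #25. Its log2FC was -0.09 ± 0.13 and -0.18 ± 0.13, which did not pass the test (adjusted p = 0.63 and 0.28). The remaining members were *SBPASE* (AT3G55800), sedoheptulose-bisphosphatase; *FBA1* (AT2G21330), a paralog of *FBA2*; *HCEF1* (AT3G54050), the plastid fructose-bisphosphatase; *RPE* (AT5G61410), the epimerase; and *EMB3119* (AT3G04790), the ribose-5-phosphate isomerase. They were lower at log2FC of -0.48 to -0.72 in #17 and -0.47 to -1.10 in #25.

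All 3 plastid members of photorespiration were lower in both lines, with medians of -1.0 and -1.08. *PLGG1* (AT1G32080), the carrier that exports glycolate from the chloroplast and returns glycerate, had 92.7, 78.7 and 107 CPM in *35S::SLIM1* #17 and 75.2, 67.3 and 73.8 CPM in #25, against 234, 244 and 162 CPM in Col-0. Its log2FC of -1.19 ± 0.16 and -1.53 ± 0.16 was the widest of the 3 genes (adjusted p = 3.0e-04 and 5.7e-05). *PGLP1* (AT5G36700), the phosphoglycolate phosphatase that starts the pathway, had 154, 120.0 and 142 CPM in #17 and 114, 126 and 145 CPM in #25, against 275, 298 and 258 CPM in Col-0, with log2FC of -0.99 ± 0.13 and -1.08 ± 0.13. The counts of its identical copy AT5G36790 were lower as well, at log2FC -0.76 and -1.13 (adjusted p = 0.012 and 0.0013), and since the copies share most of their reads these counts do not tell which of them was lower. *GLYK* (AT1G80380), the glycerate kinase that ends the pathway, had 144, 97 and 126 CPM in #17 and 108, 114 and 129 CPM in #25, against 272, 259 and 210.2 CPM in Col-0. It was lower at log2FC -1.0 ± 0.16 and -1.04 ± 0.16 (adjusted p = 7.0e-04 and 4.3e-04).

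The peroxisomal members oxidise glycolate, transaminate glyoxylate to glycine and reduce hydroxypyruvate, and 6 of 7 were lower in both lines, with medians of -0.88 and -0.72. *GGT2* (AT1G70580), the minor glutamate:glyoxylate aminotransferase, had 50.6, 48.5 and 41.6 CPM in *35S::SLIM1* #17 and 53.6, 47.3 and 54.7 CPM in #25, against 75.6, 110.0 and 96.5 CPM in Col-0. Its log2FC was -0.99 ± 0.20 and -0.83 ± 0.20 (adjusted p = 0.0031 and 0.0068). *AGT1* (AT2G13360), the serine:glyoxylate aminotransferase, had 1183, 1018 and 893 CPM in #17 and 939.5, 1064 and 1067 CPM in #25, against 2039, 2057 and 1785 CPM in Col-0, and log2FC of -0.91 ± 0.15 and -0.90 ± 0.15 (adjusted p = 0.0010 and 9.1e-04). The abundant *GGT1* (AT1G23310) was lower at log2FC -0.88 and -0.92, close to its minor paralog. *GOX2* (AT3G14415), a glycolate oxidase, moved least, with 533, 402 and 432 CPM in #17 and 365, 403 and 481 CPM in #25, against 520.5, 549 and 463 CPM in Col-0. Its libraries overlapped those of Col-0 in both lines, and its log2FC of -0.15 ± 0.15 and -0.26 ± 0.15 did not pass the test (adjusted p = 0.42 and 0.16). The tandem neighbour *GOX1* (AT3G14420) was lower at log2FC -0.46 and -0.47, a call that rested on single libraries. In #17 it was lost without replicate 2 or 3 of #17 or replicate 2 of Col-0, and in #25 without replicate 1 or 2 of #25 or replicate 2 of Col-0. *HPR1* (AT1G68010), hydroxypyruvate reductase, was lower at log2FC -0.71 and -0.72, and *CAT2* (AT4G35090), the catalase that removes the H2O2 made by glycolate oxidase, by -0.90 and -0.72.

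In the mitochondrion, glycine decarboxylase (P, T, H and L proteins) and serine hydroxymethyltransferase turn glycine into serine, and 7 of 8 members were lower in both lines, with medians of -0.97 and -1.18. *GLDH3* (AT1G32470), an H protein that carries the aminomethyl group, had 52.9, 54.6 and 62.7 CPM in *35S::SLIM1* #17 and 44.2, 39 and 48.4 CPM in #25, against 186, 157 and 148 CPM in Col-0. It was 2.86-fold and 3.64-fold lower (log2FC -1.51 ± 0.13 and -1.86 ± 0.14; adjusted p = 3.2e-05 and 9.8e-06), second only to *GAPA-2* among the 38 genes. *GLDT* (AT1G11860), the T protein, had 233, 194 and 215 CPM in #17 and 177, 161 and 179 CPM in #25, against 541, 502 and 481 CPM in Col-0. Its log2FC was -1.24 ± 0.13 and -1.53 ± 0.13 (adjusted p = 7.7e-05 and 1.8e-05). *SHM2* (AT5G26780), the minor serine hydroxymethyltransferase, was the single member with a positive log2FC in both lines. It had 27.8, 32.5 and 32.9 CPM in #17 and 29, 27.9 and 28.5 CPM in #25, against 26.7, 23.6 and 26.5 CPM in Col-0. These libraries did not overlap, but the log2FC of 0.29 ± 0.13 and 0.19 ± 0.13 did not pass the test (adjusted p = 0.11 and 0.28). The abundant *SHM1* (AT4G37930) was lower at log2FC -1.07 and -1.20, and the H proteins *GDCH* (AT2G35370) and *GLDH2* (AT2G35120) by -0.88 and -0.74 in #17 and by -1.16 and -0.69 in #25. Of the P proteins, *GLDP2* (AT2G26080) was lower at log2FC -1.26 and -1.44, and *GLDP1* (AT4G33010) by -0.52 and -0.62. The call for *GLDP1* in #17 was lost without replicate 3 of #17 or replicate 2 of Col-0.

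The ammonium set free in the mitochondrion is refixed in the plastid by glutamine synthetase and ferredoxin-dependent glutamate synthase, fed by dicarboxylate carriers, and 3 of these 4 members were lower in both lines. *GS2* (AT5G35630), the plastid glutamine synthetase, had 522, 399 and 475 CPM in *35S::SLIM1* #17 and 399, 389 and 504 CPM in #25, against 1232, 1306 and 1016 CPM in Col-0. Its log2FC was -1.34 ± 0.16 and -1.43 ± 0.16 (adjusted p = 1.8e-04 and 9.0e-05). *GLU1* (AT5G04140), the ferredoxin-dependent glutamate synthase, had 672, 628 and 682 CPM in #17 and 651, 566 and 595 CPM in #25, against 1473, 1789.7 and 1231 CPM in Col-0, with log2FC of -1.17 ± 0.15 and -1.28 ± 0.15 (adjusted p = 2.4e-04 and 1.1e-04). The carriers differed. *DIT2.1* (AT5G64290), which exchanges glutamate for malate, was lower at log2FC -0.74 and -0.92. *DIT1* (AT5G12860), which brings in 2-oxoglutarate, had 148, 102 and 141 CPM in #17 and 146, 129 and 132 CPM in #25, against 170.3, 159 and 123 CPM in Col-0. Its libraries overlapped, and its log2FC of -0.20 ± 0.17 and -0.12 ± 0.17 did not pass the test (adjusted p = 0.38 and 0.60).

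Other leaf and age markers moved with these falls. The 7 rosette leaf markers, 5 of them light-harvesting or carbonic anhydrase genes and the others the Rubisco genes *RBCS1A* and *RCA*, summed to 12633 to 18473 CPM in *35S::SLIM1* #17 and 8597 to 11231 CPM in #25 at 44 DAS, against 35936 to 47179.5 CPM in Col-0, and 6 of 7 were lower in #17 and 7 of 7 in #25. The 9 senescence markers summed to 464 to 1263 CPM in #17 and 921 to 1584 CPM in #25, against 140.3 to 253 CPM in Col-0, and 4 of 9 were higher in #17 and 8 of 9 in #25. Among them, *SWEET15*, a sucrose carrier, was higher by log2FC 2.95 and 3.80, *BFN1*, a nuclease, by 2.37 and 3.49, and *NAP*, a NAC transcription factor, by 1.90 and 2.35. Of all genes tested at 44 DAS, 20.6% were lower and 19.8% higher in #17, and 23.2% lower and 22.8% higher in #25. Of 6 phloem and guard cell markers none passed the test in either line. The part of these markers in the members' values was not tested. With scaling by library size alone, which moved the median of all genes by 0.17 in #17 and 0.20 in #25, 30 members were still lower in each line and 1 was higher in #17. The share of all genes called in that fit was not set beside these counts.

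**Figure D2:**
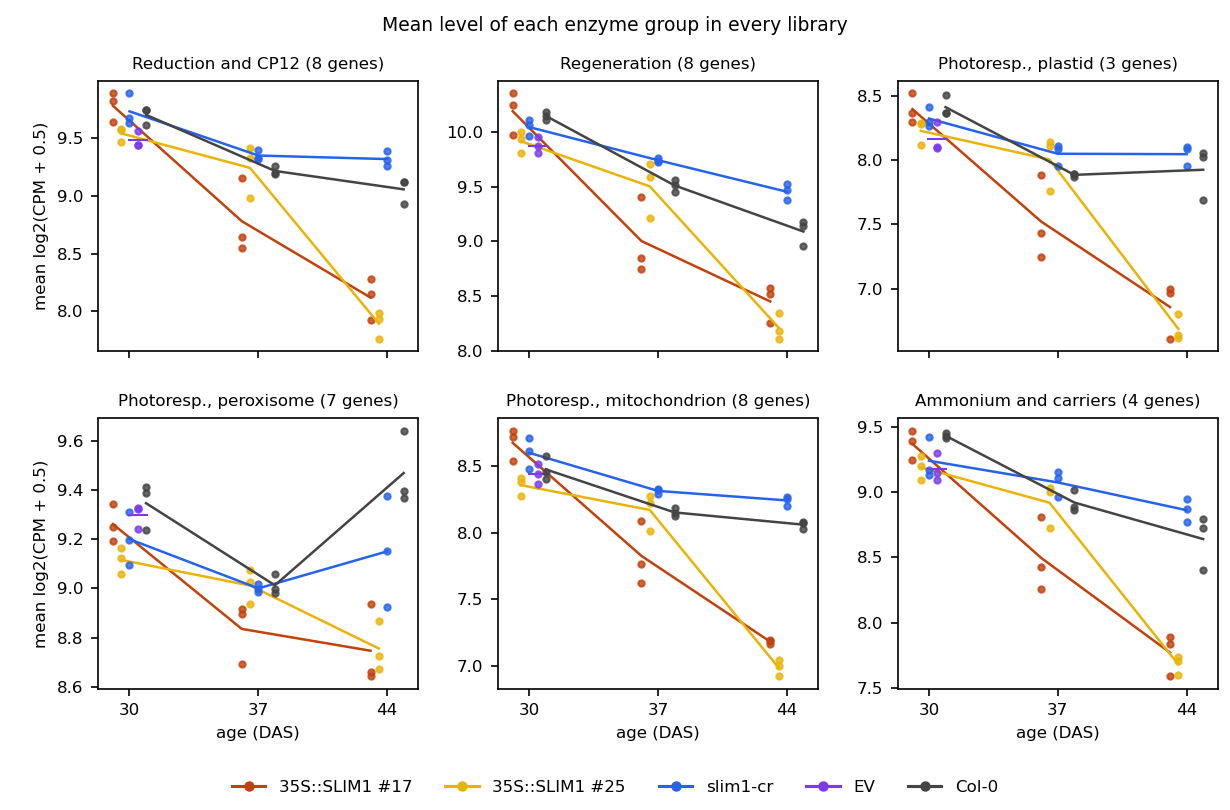
Mean of log2(CPM + 0.5) over the genes of each of 6 steps (panels) in every library (points, shifted sideways by genotype) against age in DAS, with lines through the means of 3 rosettes and each panel on its own vertical scale. At 44 DAS the points of both *35S::SLIM1* lines lie below all Col-0 points in all 6 panels and below all *slim1-cr* points in 5, the exception being the peroxisome, where the Col-0 points lie higher at 44 than at 37 DAS.

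The ratios between paralogs are given as values. Of the 10 pairs of paralogs among the members, 6 had log2 ratios at 44 DAS that overlapped Col-0 in neither line. Another 1, *FBA2* to *FBA1*, was apart in #17 alone, and 3 overlapped Col-0 in both lines. The same count was not made over other pairs of genes, so it is not read as a result about paralogs. The log2 ratio of *GAPA-2* to *GAPA*, which both code for A subunits, was near 0 at 30 DAS, with -0.06, -0.06 and 0.04 in Col-0. At 44 DAS it was -1.78, -1.73 and -1.49 in *35S::SLIM1* #17, -2.06, -2.11 and -2.02 in #25 and -0.62, -0.90 and -0.56 in *slim1-cr*, against -1.0, -1.27 and -1.17 in Col-0. The 4 genotypes did not overlap, the ratio being lowest in the overexpression lines and highest in *slim1-cr*. For the H proteins, the log2 ratio of *GLDH3* to *GDCH* at 44 DAS was -1.25, -0.87 and -0.91 in #17 and -1.02, -1.04 and -1.18 in #25, against -0.11, -0.45 and -0.59 in Col-0. The P protein ratio, *GLDP2* to *GLDP1*, was -1.77, -1.69 and -1.70 in #17 and -1.67, -1.80 and -1.93 in #25, against -0.76, -1.04 and -1.15 in Col-0. It had been -1.45, -1.47 and -1.55 in Col-0 at 30 DAS, so the Col-0 libraries of 44 DAS all lay above those of 30 DAS, whereas these ages overlapped in both lines. The ratio of *SHM2* to *SHM1* was -5.47, -4.99 and -5.20 in #17 and -5.05, -5.13 and -5.37 in #25, against -6.46, -6.87 and -6.38 in Col-0. The ratio of *CP12-2* to *CP12-1* was -2.34 to -1.79 in #17 and -2.23 to -1.97 in #25, against -1.66 to -1.36 in Col-0. It was -2.27 to -2.07 in *slim1-cr*, which lay below Col-0 as both lines did. The ratio of *GOX2* to *GOX1* was -0.87 to -0.71 in #17 and -0.97 to -0.86 in #25, against -1.14 to -1.04 in Col-0. It was -1.01 to -0.86 in *slim1-cr*, which lay above Col-0 as both lines did. These 2 shifts were thus not particular to raised *SLIM1*. The pairs that overlapped were *PGK2* to *PGK1*, at -2.94 to -2.74 in #17 and -2.92 to -2.57 in #25, against -2.77 to -2.61 in Col-0, *GGT2* to *GGT1*, at -4.96 to -4.58 in #17 and -4.61 to -4.57 in #25, against -4.92 to -4.38 in Col-0, and *GLDH2* to *GDCH*. No test was run on the ratios, and an exact permutation test of 3 rosettes against 3 could not go below p = 0.10. The coding sequences of the 4 pairs given by library were 75.9% to 87.8% identical and shared no 150-base window, so full-length reads could be assigned to one gene or the other.

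**Figure D3:**
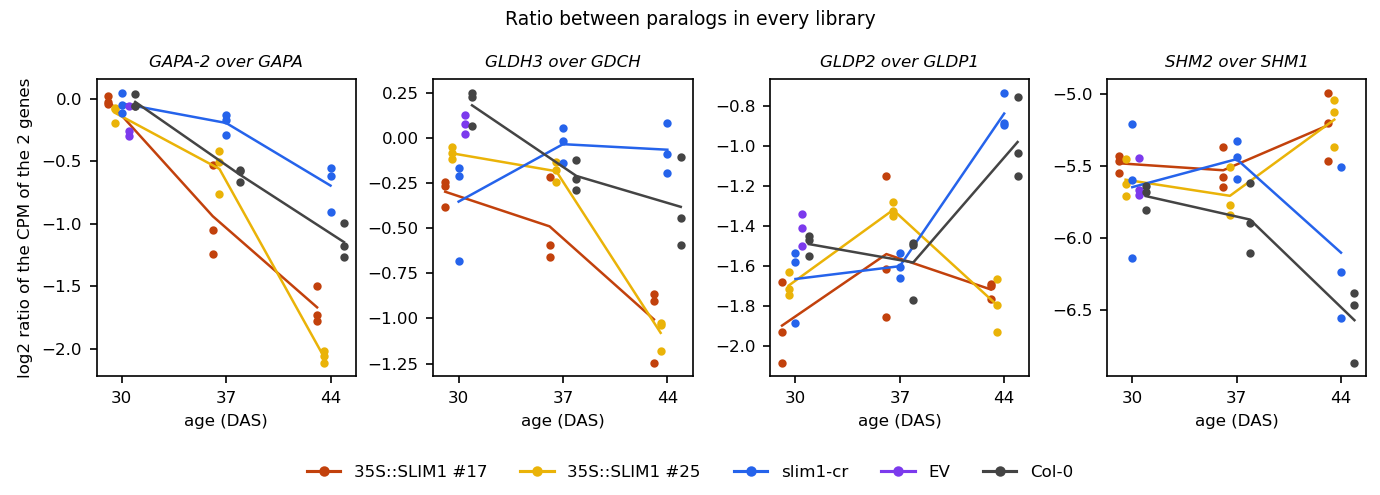
Log2 ratio of the CPM of paralogous genes (vertical axis) in every library (points, shifted sideways by genotype) against age in DAS, with lines through the means of 3 rosettes. At 44 DAS the ratio of *GAPA-2* to *GAPA* lies between -2.11 and -1.49 in the *35S::SLIM1* lines and between -1.27 and -1.0 in Col-0.

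A week earlier the difference was smaller and less even. At 37 DAS, 7 members were lower in *35S::SLIM1* #17 than in Col-0 and none was higher, against 17.0% of all genes lower and 19.8% higher, and the median log2FC of the members was -0.37. The share of members lower was thus close to that of all genes. The 7 lower members were *EMB3119*, *PGK2*, *TKL1*, *PLGG1*, *DIT1*, *DIT2.1* and *CAT2*, at log2FC of -0.44 to -0.78. *EMB3119* had 92.8, 94 and 168 CPM in #17, against 211, 185 and 211 CPM in Col-0, and the third rosette of #17 lay well above the other 2. The same rosette was the highest of its group for 33 of the 38 members. Without it 26 members were lower, and without replicate 1 or replicate 2 of #17 only *TKL1* and *CAT2* were, and 3 members remained called without replicate 1 or replicate 3 of Col-0, so single rosettes decide the count at this age. Library size alone gave 20 lower members. The share of all genes called was not set beside these alternative counts. In *35S::SLIM1* #25, *CAT2* alone was lower and no member was higher, against 9.74% of all genes lower and 12.5% higher, and the median was 0.00. *CAT2* had 341, 301 and 405 CPM in #17 and 342, 394 and 393 CPM in #25, against 465, 503 and 561 CPM in Col-0, with log2FC of -0.54 ± 0.13 and -0.46 ± 0.13 (adjusted p = 0.010 and 0.032). The call in #25 was lost without any 1 of 5 of the 6 libraries, the exception being replicate 1 of Col-0. The senescence markers summed to 252 to 482 CPM in #17 and 285 to 421 CPM in #25 at this age, against 131 to 165 CPM in Col-0, and their part was not tested. In the direct comparison of the lines at 37 DAS, *PGLP1* was higher in #25 than in #17, at log2FC 0.48, and no other member passed the test, against 3.90% of all genes higher and 4.35% lower. At 44 DAS no member differed between the lines, where 0.00976% of all genes were higher in #25 and 0 lower, and at 30 DAS none did either, where 0.735% were higher and 0.957% lower.

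At 30 DAS few members differed from Col-0 in any genotype. In *35S::SLIM1* #17, *GDCH* alone was higher and none was lower, against 3.79% of all genes higher and 3.17% lower. In *35S::SLIM1* #25, *PGK2* and *FBA2* were lower at log2FC -0.41 and -0.43 and none was higher, against 2.83% lower and 3.55% higher. Both calls were lost without any 1 of the 6 libraries compared. *GDCH*, an H protein of glycine decarboxylase, had 477, 491 and 368 CPM in #17 and 740.4, 407 and 417 CPM in *slim1-cr*, against 259, 231 and 324 CPM in Col-0. Against the same Col-0 rosettes *GDCH* was higher both in #17 and in *slim1-cr*, by log2FC 0.72 ± 0.20 and 0.95 ± 0.20 (adjusted p = 0.048 and 0.024). In #25, where *SLIM1* was raised as well, it had 328, 285 and 303 CPM, which overlapped Col-0, and was not called. The call in #17 was lost without replicate 1 or 2 of #17 or of Col-0, and the call in *slim1-cr* without replicate 1 or 2 of Col-0. In *EV* no member and no gene of 20274 (0% higher and 0% lower) passed edgeR's test, 1721 genes had an unadjusted p under 0.05 and DESeq2 called 82. Of the 38 members 11 were lower and none higher at an unadjusted p under 0.05, and DESeq2 called 1, *PRK*, lower. The median log2FC of the members in *EV* was -0.16, as large as the -0.16 of #25. Against *EV*, 7 members were higher in #17 and 1, *GGT1*, was lower, where 7.16% of all genes were higher and 5.11% lower, and in #25 *GLDP2* was lower and none was higher, where 2.47% were lower and 3.05% higher.

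The *slim1-cr* plants moved the other way at 44 DAS, and by less. The 7 members that were higher were *EMB3119*, *GAPA-2*, *GLDH3*, *SBPASE*, *DIT1*, *GLDT* and *TIM*, at log2FC of 0.50 to 0.73. The Col-0 rosettes are those that also served both overexpression lines. *EMB3119* had 152, 113 and 147 CPM in *slim1-cr*, against 82.7, 87 and 82.1 CPM in Col-0, a log2FC of 0.73 ± 0.12 (adjusted p = 0.035). *GAPA-2* had 1311, 985 and 1244 CPM in *slim1-cr*, against 839.6, 680.4 and 664 CPM in Col-0, a log2FC of 0.72 ± 0.17 (adjusted p = 0.037). In both genes every *slim1-cr* library lay above every Col-0 library. *GLDH3* had 276, 221 and 270.3 CPM in *slim1-cr*, against 186, 157 and 148 CPM in Col-0, with a log2FC of 0.67 ± 0.13. *SBPASE* had 622, 531 and 619.6 CPM in *slim1-cr*, against 462, 384 and 332 CPM in Col-0, with a log2FC of 0.61 ± 0.15. *DIT1* and *GLDT* were higher at log2FC 0.60 ± 0.17 and 0.59 ± 0.13. All 7 calls were lost when replicate 2 or 3 of Col-0, or replicate 1 or 3 of *slim1-cr*, was left out, and 0.0822% to 0.169% of all genes were then called. Without replicate 2 of *slim1-cr*, 11 members were higher and 2 lower, and the share of all genes called was not set beside that count. The senescence markers summed to 61.8 to 235 CPM in *slim1-cr*, against 140.3 to 253 CPM in Col-0, with none of 9 called, and the leaf markers to 51649 to 60648 CPM, against 35936 to 47179.5 CPM, and their part was not tested. The peroxisomal members leaned the other way, with a median log2FC of -0.25, but none of the 7 passed the test.

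At the earlier ages *slim1-cr* differed from Col-0 in single genes. At 37 DAS *SHM2* was higher and none was lower, against 1.40% of all genes higher and 4.14% lower. It had 47.6, 44 and 43.9 CPM in *slim1-cr*, against 40.3, 34.6 and 36.5 CPM in Col-0, a log2FC of 0.27 ± 0.07 (adjusted p = 0.049), and the call was lost without any 1 of 5 of the 6 libraries, the exception being replicate 1 of Col-0. At 30 DAS *GDCH* was higher, and *GLDP2* and *PRK* were lower, against 2.63% of all genes higher and 2.12% lower. *GLDP2* had 453, 443 and 534 CPM in *slim1-cr*, against 606, 689 and 723 CPM in Col-0, a log2FC of -0.49 ± 0.11 (adjusted p = 0.031). *PRK* had 1173, 1119 and 1187 CPM in *slim1-cr*, against 1461, 1441 and 1497 CPM in Col-0, a log2FC of -0.33 ± 0.08 (adjusted p = 0.035). Both groups were tight and apart, yet of the 6 ways of leaving out a library only that without replicate 3 of *slim1-cr* kept both calls. In that fit 7 members were lower, and the share of all genes called was not set beside that count.

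The comparison of ages within a genotype asked how the pathways changed as rosettes grew older. In Col-0, 27 of 38 members were lower at 37 than at 30 DAS and none was higher, against 16.0% of all genes lower and 19.8% higher, with a median log2FC of -0.44. *GAPA-2* fell furthest, at a log2FC of -1.10, with 1033, 969 and 985 CPM at 37 DAS, against 2198, 1952 and 2263 CPM at 30 DAS. From 37 to 44 DAS the wild type went in both directions, with 9 members higher and 8 lower, against 24.5% of all genes higher and 26.8% lower. Neither share of members exceeded that of all genes, so the genes named next are given as values only. The 9 higher ones were *CP12-2*, *PGLP1*, *GLU1* and 5 peroxisomal genes, *GOX1*, *AGT1*, *GGT1*, *GGT2* and *HPR1*, with *GLDP2* of the mitochondrion. *GGT2* had 75.6, 110.0 and 96.5 CPM in Col-0 at 44 DAS, against 50.2, 53.5 and 52.8 CPM at 37 DAS. *HPR1* had 587, 678 and 556 CPM at 44 DAS, against 379.6, 392 and 346 CPM at 37 DAS, so that all libraries of 44 DAS lay above those of 37 DAS in both genes. The 8 lower ones were *EMB3119*, *SBPASE*, *TKL1*, *PGK2*, *DIT1*, *DIT2.1*, *SHM2* and *GLDH3*. With library size alone the split was 5 higher and 22 lower, since that scaling moved the median of all genes by -0.25. *GGT1*, *GLDP2*, *HPR1* and *GLU1* were also higher at 44 than at 37 DAS in *slim1-cr*, where 5 members were higher and 8 lower, against 21.4% of all genes higher and 20.2% lower. These shares of members in *slim1-cr* were near or below those of all genes. With library size alone the split in *slim1-cr* was 2 higher and 13 lower, and without replicate 2 of 44 DAS it was 2 higher and 6 lower. Between 30 and 37 DAS, 7 members were lower in *slim1-cr* and none was higher, against 5.60% of all genes lower and 8.02% higher. That count was 1 without replicate 1 of *slim1-cr* at 30 DAS and 2 without replicate 1 at 37 DAS. The shares of all genes called were not set beside the counts and splits under alternatives in Col-0 or *slim1-cr*.

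The overexpression lines were compared between ages in the same way. In *35S::SLIM1* #17, 32 members were lower at 37 than at 30 DAS and none was higher, against 29.9% of all genes lower and 30.4% higher, with a median log2FC of -0.91. From 37 to 44 DAS 26 were lower and 1, *CP12-1*, was higher, against 26.8% of all genes lower and 20.2% higher, with a median of -0.57. In *35S::SLIM1* #25, 6 members were lower at 37 than at 30 DAS and none was higher, against 13.8% of all genes lower and 19.1% higher, with a median of -0.25, so the share of members lower was close to that of all genes. That count was 3 without replicate 3 of 30 DAS, 2 without replicate 2 of 37 DAS and 10 without replicate 1 of 37 DAS, and 14 with library size alone. The shares of all genes called were not set beside these alternative counts. From 37 to 44 DAS 32 were lower and none was higher, against 36.5% of all genes lower and 29.3% higher, with a median of -1.15. *GAPA-2* shows the course in full. It had 2187, 2246 and 2167 CPM at 30 DAS, 473, 462 and 1009.6 CPM at 37 DAS and 253, 194 and 264 CPM at 44 DAS in #17. In #25 it had 1975, 1698 and 1998 CPM, 1416, 812 and 1215 CPM and 177, 157 and 182 CPM at these ages. *GGT1*, the peroxisomal aminotransferase that was higher at 44 than at 37 DAS in Col-0, had 1569.9, 1161 and 1195 CPM at 44 DAS, against 1461, 1257 and 1504 CPM at 37 DAS, in #17, with overlapping libraries. In #25 it was lower, with 1276, 1159 and 1339 CPM at 44 DAS, against 1694, 1616 and 1745 CPM at 37 DAS.

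Whether these courses differed from that of Col-0 was tested for the whole span between 30 and 44 DAS. The change was lower than in Col-0 for 32 members in #17 and higher for none, against 15.1% of all genes lower and 11.7% higher. It was lower for 28 members in #25 and higher for none, against 18.5% lower and 11.7% higher. In *slim1-cr* it was higher for *EMB3119* and *DIT2.1* and lower for *GGT2*, against 4.35% higher and 2.46% lower.

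Summed over the 38 genes, both pathways together took 1.68, 1.56 and 1.59% of all counts in *35S::SLIM1* #17 and 1.49, 1.42 and 1.59% in #25 at 44 DAS, against 2.64, 2.71 and 2.35% in Col-0. In *slim1-cr* the share was 2.79, 2.75 and 2.73%, above all Col-0 libraries. At 30 DAS it had been 3.46 to 4.00% in #17 and 3.17 to 3.47% in #25, against 3.6 to 3.82% in Col-0. The Calvin cycle genes took 0.638 to 0.714% in #17 and 0.561 to 0.642% in #25, against 0.969 to 1.14% in Col-0 at 44 DAS. The photorespiration genes took 0.881 to 0.964% in #17 and 0.861 to 0.947% in #25, against 1.38 to 1.64% in Col-0, so both pathways lay below the wild type. In *slim1-cr* the Calvin cycle genes took 1.25 to 1.39%, above every Col-0 library, and the photorespiration genes 1.34 to 1.5%, which overlapped Col-0.

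**Figure D4:**
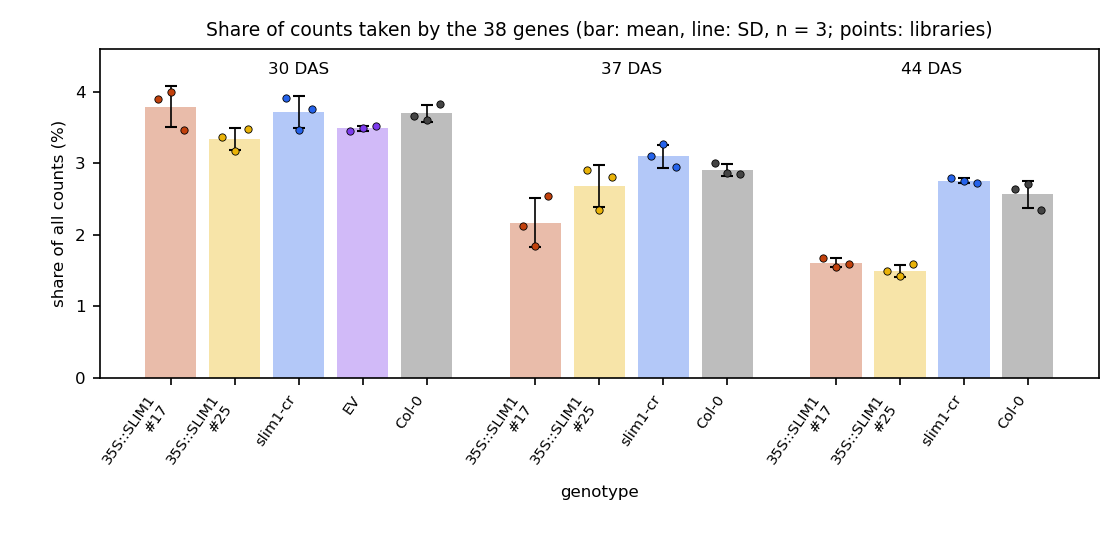
Share of all counts, in percent, that fell on the 38 genes in each genotype and age (bars, mean; lines, SD, n = 3; points, libraries). At 44 DAS the *35S::SLIM1* libraries lie between 1.42% and 1.68%, below the Col-0 libraries at 2.35% to 2.71%.

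The neighbouring isoenzymes were lower and higher in similar numbers. Of 24 other genes of both pathways, mostly minor or paralogous forms, 8 were lower and 7 higher in *35S::SLIM1* #17 at 44 DAS, and 7 were lower and 8 higher in #25, with medians of 0.17 and 0.07. Of all genes tested, 20.6% were lower and 19.8% higher in #17, and 23.2% lower and 22.8% higher in #25. *CAT3*, a catalase, was higher by log2FC 1.11 ± 0.17 and 1.02 ± 0.17 while *CAT2* was lower. Per kilobase, *CAT3* stood at 2786 ± 366 CPM in #17 and 2577 ± 247 CPM in #25, against 1302 ± 189 CPM in Col-0, above *CAT2* in each. *GOX3*, a glycolate oxidase paralog of low level, was higher at log2FC 3.11 and 3.17, but with 12.7, 15.1 and 15.2 CPM in #17 and 11.4, 18.1 and 14.5 CPM in #25, against 1.38, 1.2 and 2.39 CPM in Col-0, it stood at 6.96 ± 0.672 and 7.14 ± 1.61 CPM per kb in the lines, where *GOX2* stood at 264 ± 39.8 and 241 ± 34. AT4G22840, of the same list, was higher at log2FC 1.45 and 1.43.

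Among 19 cytosolic counterparts, 5 were lower and 7 higher in #17 at 44 DAS, and 6 were lower and 9 higher in #25, with medians of 0.24 and 0.22. For this list and those below, the shares of all genes were 20.6% lower and 19.8% higher in #17. In #25 they were 23.2% lower and 22.8% higher. The cytosolic glutamine synthetases, which are known to assimilate ammonium released by protein breakdown, differed from the plastid form *GS2*, in that *GLN1;1*, *GLN1;3* and *GLN1;4* were higher in both lines. *GLN1;4* had 209, 311 and 284 CPM in #17 and 232, 298 and 356 CPM in #25, against 26.6, 26.9 and 39.4 CPM in Col-0, 8.73-fold and 9.76-fold higher (adjusted p = 4.6e-05 and 2.6e-05). *GLN1;1* had 749.6, 1109 and 839.9 CPM in #17 and 1061, 1022 and 1143 CPM in #25, against 287, 315 and 327 CPM in Col-0, with log2FC of 1.55 ± 0.24 and 1.83 ± 0.24. Per kilobase *GLN1;1* stood at 566 ± 118 and 677 ± 38.9 CPM in the lines, above *GS2* at 221 ± 29.7 and 205 ± 30.1 CPM, while in Col-0 *GLN1;1* was at 195 ± 13 and *GS2* at 564 ± 71.7 CPM. Before 44 DAS *GLN1;1* in Col-0 had been at 201 ± 18.5 CPM per kb at 30 DAS and 447 ± 58.5 at 37 DAS. At 37 DAS it stood at 479 ± 156 in #17 and 426 ± 118 in #25. *GLN1;3* was higher at log2FC 0.90 and 1.08, and *GLN1;2*, at 0.24 and 0.22, did not pass the test. The cytosolic aldolase *FBA5* was lower at log2FC -1.17 and -1.64. Rubisco, at the head of the Calvin cycle, was lower in 4 of 5 genes in #17 and 5 of 5 in #25, led by the small subunit genes *RBCS2B*, at -2.81 and -3.28, and *RBCS3B*, at -2.78 and -3.02; the small subunit genes are close copies, so the split of reads between them is uncertain. Of 9 circadian clock genes, 3 were higher and 5 lower in #17, and 1 was higher and 4 lower in #25, led by *ELF4* at 1.97 and 2.40; the hour of harvest is not given in the sources used here, and the part of the clock in the members' values was not tested.

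**Figure D5:**
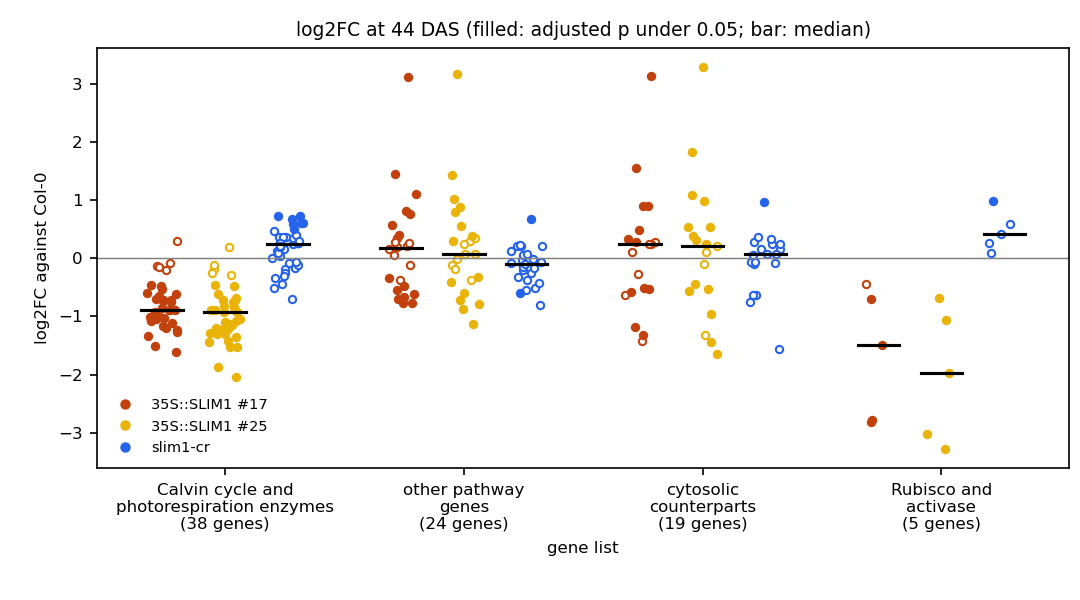
Log2FC against Col-0 at 44 DAS (vertical axis) of every gene in 4 lists, shown for both *35S::SLIM1* lines and then for *slim1-cr* (filled points, adjusted p under 0.05; open points, not; bars, median). The 38 enzymes have medians of -0.88 and -0.92 in the overexpression lines, whereas the other pathway genes and the cytosolic counterparts spread to both sides of 0.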

How the data were processed

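RNA-seq of polyA-selected, strand-specific libraries was carried out on 39 rosettes. The authors mapped paired reads to the TAIR10 genome with the Araport11 annotation and deposited raw counts per gene, which were used here as deposited. A table of counts that the authors had normalized by median ratios was not used. The authors tested each day with DESeq2 1.40.2.

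Groups and replicate numbers were taken from the sample labels. Counts were filtered (filterByExpr), scaled by TMM and tested in R 4.3.3 with edgeR 4.0.16 (quasi-likelihood, robust), in a fit per day for genotypes and in a fit of all 13 groups for ages. P-values were adjusted by Benjamini-Hochberg over all genes tested (20274 at 30 DAS, 20296 at 37 DAS, 20499 at 44 DAS and 21040 across ages), with a threshold of 0.05. CPM are TMM-scaled, and an offset of 0.5 was added before logs were averaged. Individual rosettes differed beyond counting error in every group, and no pair was treated as a duplicate. Depth was 38.4 to 46.2 M counts per library. The procedure was tested on simulated data.

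The members and lists were chosen with earlier results of these data known. Per-library values are given for the 2 members of each step that moved most and the 1 that moved least at 44 DAS. They are also given for members called against the median and for up to 6 called in *slim1-cr* per day. The same holds for up to 3 genes of each other list. Some pairs of paralogs are given by library as ratios. Of these, *GAPA-2* to *GAPA*, *GLDH3* to *GDCH* and *GLDP2* to *GLDP1* did not differ in call or direction at 44 DAS. *GGT1*, *HPR1*, *EMB3119* at 37 DAS and *GLN1;2* and *GLN1;3* were named after their values were seen. Alternatives were DESeq2 1.42.0, RLE factors, library size alone, no count filter, a replicate block, other sets of libraries in the fit and leaving out each library. Promoters were read from RefSeq TAIR10.1, whose gene models matched all 38 members.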

Additional observations from a re-analysis of the deposited data

Results flagged for a closer look

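The change between 30 and 44 DAS was tested directly for a difference from that of Col-0 (an interaction contrast in edgeR's quasi-likelihood fit, Benjamini-Hochberg adjustment, n = 3 per group). It differed for 32 of the 38 members in *35S::SLIM1* #17, all lower and none higher, where 15.1% of all genes were lower and 11.7% higher. It differed for 28 members in *35S::SLIM1* #25, again all lower, where 18.5% of all genes were lower and 11.7% higher. In *slim1-cr* 3 members differed, 2 higher and 1 lower, a share near that of all genes, of which 4.35% were higher and 2.46% lower, so these 3 are given as values only.

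The widest differences in the overexpression lines were those of the same 3 genes. *GLDH3*, *GAPA-2* and *GDCH* changed by -1.77, -1.66 and -1.61 on the log2 scale relative to Col-0 in #17, and by -1.81, -1.90 and -1.36 in #25. The value of *GDCH* in #17 includes a higher start, with a mean of 445 CPM against 271 CPM in Col-0 at 30 DAS. At 44 DAS the means were 114 CPM in #17 and 212 CPM in Col-0. In *slim1-cr*, *EMB3119*, the ribose-5-phosphate isomerase, differed by 0.80 and the carrier *DIT2.1* by 0.49, whereas the aminotransferase *GGT2* differed by -0.85.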

How the results depend on the processing

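Of the 249 calls of single members, 248 held with DESeq2, 244 with RLE factors, 239 without the count filter and 220 with library size alone, and no call changed direction under any alternative run. Leaving out 1 library at a time, calls held in 1291 of 1494 checks. With the libraries of one genotype alone, 140 of 161 calls between ages held. With all 13 groups in one fit, 83 of 88 calls between genotypes held. At 44 DAS the overexpression lines kept 30 to 33 (#17) and 32 to 33 (#25) called members with any 1 library left out. The small counts depended on the processing, and the cause was not tested. Most counts under alternatives, here and above, stand without the share of all genes called in the same fit. With DESeq2, 1 member was called in *EV*, 6 in *slim1-cr*, 2 in #17 and 7 in #25 at 30 DAS, 2 in *slim1-cr* and 20 in #17 at 37 DAS, and 13 in *slim1-cr* at 44 DAS. It called 12 members between 30 and 37 DAS in *slim1-cr* and 10 in #25. Without the filter the count at 30 DAS was 0 in #17 and 1 in #25, and at 37 DAS it was 0 in *slim1-cr*, as it was with RLE factors and with library size alone. Library size alone gave 20 in #17 at 37 DAS, and between ages 17 (Col-0, 37 v 30 DAS), 27 (Col-0, 44 v 37 DAS) and 14 (#25, 37 v 30 DAS). With all 13 groups in one fit the counts were 1 (#25, 30 DAS), 0 (*slim1-cr*, 37 DAS), 22 (#17, 37 DAS), 0 (#25, 37 DAS) and 12 (*slim1-cr*, 44 DAS). With the libraries of one genotype alone they were 0 (*slim1-cr*, 37 v 30 DAS), 7 (*slim1-cr*, 44 v 37 DAS) and 10 (#25, 37 v 30 DAS). Leaving out 1 library gave 0 to 8 members in *slim1-cr*, 0 to 3 in #17 and 0 in #25 at 30 DAS, 0 to 1 in *slim1-cr*, 2 to 26 in #17 and 0 to 1 in #25 at 37 DAS, 0 to 13 in *slim1-cr* at 44 DAS, 1 to 10 (*slim1-cr*) and 2 to 10 (#25) between 30 and 37 DAS, and 8 to 15 in *slim1-cr* between 37 and 44 DAS.

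No pairing by replicate number was seen over all groups together, and pairing within a day was not looked at separately. Deviations of same-numbered libraries had a median correlation of 0.0154 over 234 pairs, against 0.00231 over 468 pairs with different numbers. Single pairs ranged from -0.602 to 0.523 with the same number and from -0.587 to 0.715 with different numbers. With the replicate number as a block, the count was 0 in #17 and 1 in #25 at 30 DAS and 0 in *slim1-cr* at 37 DAS, and 242 of the 249 calls held.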
